A study of Drosophila melanogaster with 2 samples.

Results

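Peaks of Dachshund-eGFP at the promoters of non-coding RNA (ncRNA) genes were taken from the deposited relaxed peak list of both replicates pooled, on the dm6 genome build. A peak belonged here when its summit lay within 500 bp of an annotated transcription start site (TSS) of a gene with the ncRNA biotype and more than 500 bp from every protein-coding TSS in Ensembl. These criteria selected 729 of 30000 pooled peaks (2.43%), nearest to 612 ncRNA genes. Gene symbols are given without the lncRNA or asRNA prefix of the annotation. The series is a ChIP-seq experiment in whole Drosophila melanogaster prepupae, with males and females pooled, carrying a transgene that expresses Dachshund with GFP at its C-terminus. The immunoprecipitation used an antibody against GFP, and the samples form 1 group of 2 biological replicates, numbered 1 and 3. The labels give an age of 48 days, which does not match a prepupal stage and was not used. A sample without the tag was not analysed here, whole animals mix many cell types, and the read depth is unknown, so no value below can be tied to a cell type or corrected for background signal.

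Dachshund is a nuclear protein of the Ski/Sno family that acts with Eyes absent and Sine oculis in the network of retinal determination genes. It also has roles in the developing leg and the mushroom bodies. Long non-coding RNA (lncRNA) genes are transcribed by RNA polymerase II and yield transcripts without a long reading frame. Some of them host microRNAs or small nucleolar RNAs, and antisense RNAs (asRNAs) are transcribed from the strand opposite to another gene. The biotype used here also holds microRNA entries, whose annotated ends are processing sites and not start sites.

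The sequences around a few summits are shown because their peaks are the strongest here, carry a searched motif, or lie at well-studied genes. Each run is 121 bases of the genome's plus strand (RefSeq, Release 6, the dm6 assembly), 5′ to 3′, with the summit at base 61. Capitals mark matches, on either strand, to any of 13 short motifs described with the motif results.
CR44619, upstream peak (chrX:12751337-12751457): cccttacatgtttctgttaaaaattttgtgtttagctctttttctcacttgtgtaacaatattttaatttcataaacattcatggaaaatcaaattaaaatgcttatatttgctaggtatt
CR44619, downstream peak (chrX:12752296-12752416): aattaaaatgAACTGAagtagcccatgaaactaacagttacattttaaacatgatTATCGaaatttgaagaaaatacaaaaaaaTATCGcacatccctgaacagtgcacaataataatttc
CR31044 (chr3R:29214395-29214515): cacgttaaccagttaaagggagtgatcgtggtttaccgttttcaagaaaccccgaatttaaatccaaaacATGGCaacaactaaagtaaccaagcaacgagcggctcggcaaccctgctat
CR45999 (chr3R:4395233-4395353): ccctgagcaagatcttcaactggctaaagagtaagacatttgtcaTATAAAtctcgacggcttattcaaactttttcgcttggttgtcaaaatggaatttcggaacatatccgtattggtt
CR44429 (chrX:15298370-15298490): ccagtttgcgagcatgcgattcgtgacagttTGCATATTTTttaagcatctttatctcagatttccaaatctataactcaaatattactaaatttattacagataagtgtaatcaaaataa
CR44222 (chr2L:223485-223605): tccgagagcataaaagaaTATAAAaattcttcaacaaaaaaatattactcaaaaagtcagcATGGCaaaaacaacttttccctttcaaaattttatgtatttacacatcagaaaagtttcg
Hsromega, stronger peak (chr3R:21296317-21296437): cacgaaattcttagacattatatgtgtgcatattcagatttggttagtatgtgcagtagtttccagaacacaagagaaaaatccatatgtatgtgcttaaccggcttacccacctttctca
Hsromega, weaker peak (chr3R:21296530-21296650): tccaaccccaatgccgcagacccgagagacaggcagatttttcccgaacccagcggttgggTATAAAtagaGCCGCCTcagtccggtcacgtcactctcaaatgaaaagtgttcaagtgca
roX1 (chrX:3862596-3862716): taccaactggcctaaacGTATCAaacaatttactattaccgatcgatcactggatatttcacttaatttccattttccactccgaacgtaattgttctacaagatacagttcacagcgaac
The upstream peak of CR44619, the strongest of all, and the stronger peak of Hsromega held no match in these 121 bases. CR31044 and CR44222 held the Pleiohomeotic letters, and CR45999, CR44222 and the weaker Hsromega peak held the TATA box letters TATAAA. CR44429 held the Su(Hw) letters, and roX1 held the Sine oculis letters.

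Each peak carries a signal value from the authors' peak caller, which ranks peaks within a list. The signal of the 729 peaks ran from 26.3 to 1552 with a median of 45.1, against a median of 43.9 over all pooled peaks. The median was 56.5 at the 6290 peaks within 500 bp of a protein-coding TSS, called protein-coding promoter peaks here, of which 258 also lay near an ncRNA TSS. It was 41.8 at the 22981 distal peaks, which lie near neither kind of TSS. The difference of median log2 signal from all other pooled peaks was 0.04 and turned to -0.02 with a window of 1000 bp. At a q-value of 0.05 or less there were 234 ncRNA promoter peaks (32.1%), against 30.6% of all pooled peaks.

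An optimal IDR list, which holds peaks whose ranks are reproducible between replicates, was overlapped by at least 1 bp by 134 of the 729 peaks. That is 18.4% (95% Wilson interval 15.7 to 21.4%), where 16.7% of all pooled peaks overlapped it. Intervals here cover counting error only, and no test was made, since peaks of one list share their libraries. The share was 27.5% (26.4 to 28.6%) at protein-coding promoter peaks and 13.8% (13.3 to 14.2%) at distal peaks. The difference from all other pooled peaks was 1.68 percentage points in the pooled list. It was 3.80 points when the same criteria were applied to the list of replicate 1 alone and 2.87 points in that of replicate 3 alone. The difference from protein-coding promoter peaks was -9.09 points, against -9.44 in the list of replicate 1 and -4.16 in that of replicate 3. It shrank to -2.15 points among pooled peaks at a q-value of 0.05 or less and to -4.60 points when only IDR peaks above their median signal counted. Of the 134, 111 had the same start and end as an IDR peak and 23 only overlapped one. Together the 134 overlapped 121 IDR peaks, so some of them shared an IDR peak and are not separate sites. Sharing also occurred in the whole pooled list, where 5022 peaks overlapped a list of 4137 IDR peaks. The 134 peaks lay near 110 ncRNA genes, and their signal had a median of 172.

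**Figure D1:**
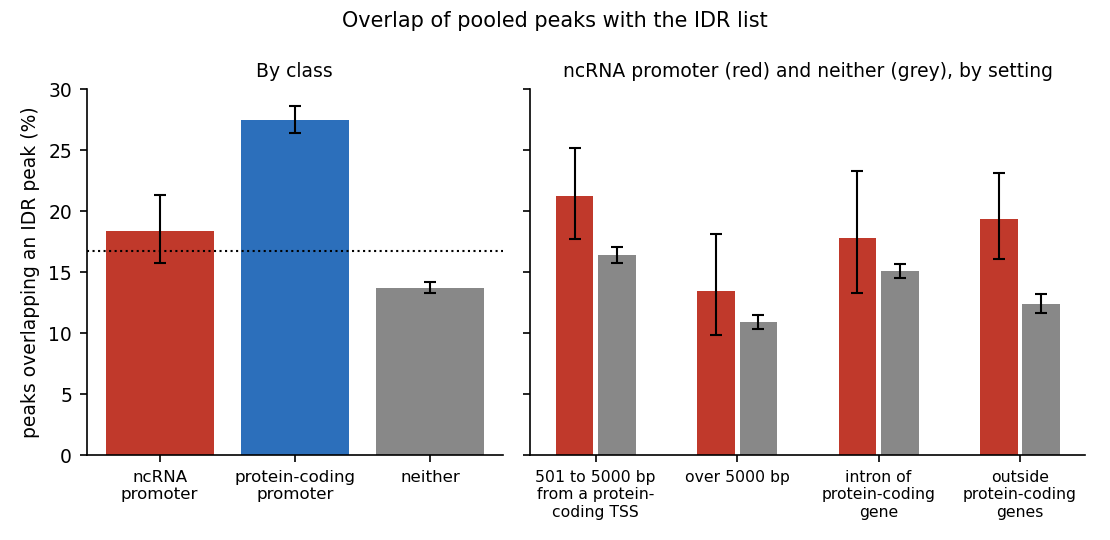
Share of peaks that overlap an IDR peak, in percent, by class (left) and within 4 settings (right), with bars for 95% Wilson intervals; neither means distal peaks and the dotted line is the 16.7% of all pooled peaks. The ncRNA promoter peaks sit at 18.4%, against 27.5% at protein-coding promoter peaks and 13.8% at distal peaks.

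In the top of the pooled list, ncRNA promoter peaks were 3 of the first 100, 22 of the first 500 (4.4%) and 38 of the first 1000 (3.8%). Among the first 2000 they were 62 (3.1%), and over the whole list they were 2.43%.

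The strongest ncRNA promoter peak lay 470 bp upstream of the TSS of CR44619, an uncharacterised lncRNA on X, at 12750846 to 12751656. Its pooled signal was 1552, rank 5 of the 30000. It ranked 3 in replicate 1, with a signal of 667, and 8 in replicate 3, with a signal of 890. Signals of lists called separately are not on one scale, so ranks are compared across lists. A second peak of CR44619 lay 489 bp downstream of the TSS, at 12752193 to 12752539, with pooled rank 69, rank 72 in replicate 1 and rank 72 in replicate 3. Both CR44619 peaks lay outside protein-coding genes, and the first was 5080 bp from the nearest protein-coding TSS, that of CG4004.

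The second strongest peak, at 29214262 to 29214602 on 3R, lay 107 bp upstream of CR31044, the lncRNA that hosts mir-279 and mir-996; mir-279 is known for limiting the formation of carbon dioxide-sensing neurons. Its pooled signal was 1005, rank 37, with rank 40 in replicate 1 and rank 31 in replicate 3. CR44339 on 2R had a peak 147 bp upstream of its TSS at pooled rank 121. The nearest protein-coding TSS there, 4226 bp away, was that of Psc, a subunit of Polycomb repressive complex 1. The peak ranked 160 in replicate 1 and 112 in replicate 3. CR45645 on 3R had a peak 164 bp upstream, at pooled rank 164, with rank 237 in replicate 1 and 139 in replicate 3. CR46102 had its peak 178 bp downstream of its TSS, in an intron of LpR2, a lipophorin receptor, at pooled rank 170. It ranked 107 in replicate 1 and 260 in replicate 3.

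CR44810 on 2R, 4508 bp from the TSS of slbo, a C/EBP transcription factor, had a peak 136 bp upstream of an annotated TSS. That TSS is internal, as the summit, at 24329594, lay inside the gene, which runs from 24325027 to 24330277 on the plus strand. The pooled rank of the peak was 187, with rank 294 in replicate 1 and 158 in replicate 3. The strongest asRNA peaks were those of CR45999 on 3R, 256 bp upstream at pooled rank 201, and CR44429 on X, 213 bp upstream at pooled rank 242. CR45999 ranked 212 in replicate 1 and 204 in replicate 3. CR44429, which lies in an intron of gce, a juvenile hormone receptor gene, ranked 259 in both replicates. CR44676, with the strongest peak on 3L, had its summit 394 bp downstream of the TSS at pooled rank 252. It ranked 182 in replicate 1 and 343 in replicate 3.

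CR44091 on 3R had a peak 53 bp downstream of its TSS at pooled rank 262. CR44651 on 2R had one 351 bp upstream at rank 283. On X, CR45541 had a peak 238 bp upstream at rank 287, 1736 bp from the TSS of Hex-A, a hexokinase gene. CR45668 had one 186 bp upstream at rank 303, 686 bp from that of Act5C, a cytoplasmic actin gene. CR44222, with the strongest peak on 2L, had its summit 26 bp downstream of the TSS at rank 334, in an intron of kis, which encodes a chromatin remodeller. All 15 strongest peaks overlapped an IDR peak, and none ranked lower than 338 in replicate 1 or 426 in replicate 3. They were chosen by the pooled signal of the same replicates, so this follows in part from the choice. The IDR share of other pooled peaks of such ranks is not given here. Of the 15, 10 summits lay upstream and 5 downstream, and 12 lay outside protein-coding genes.

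**Figure D2:**
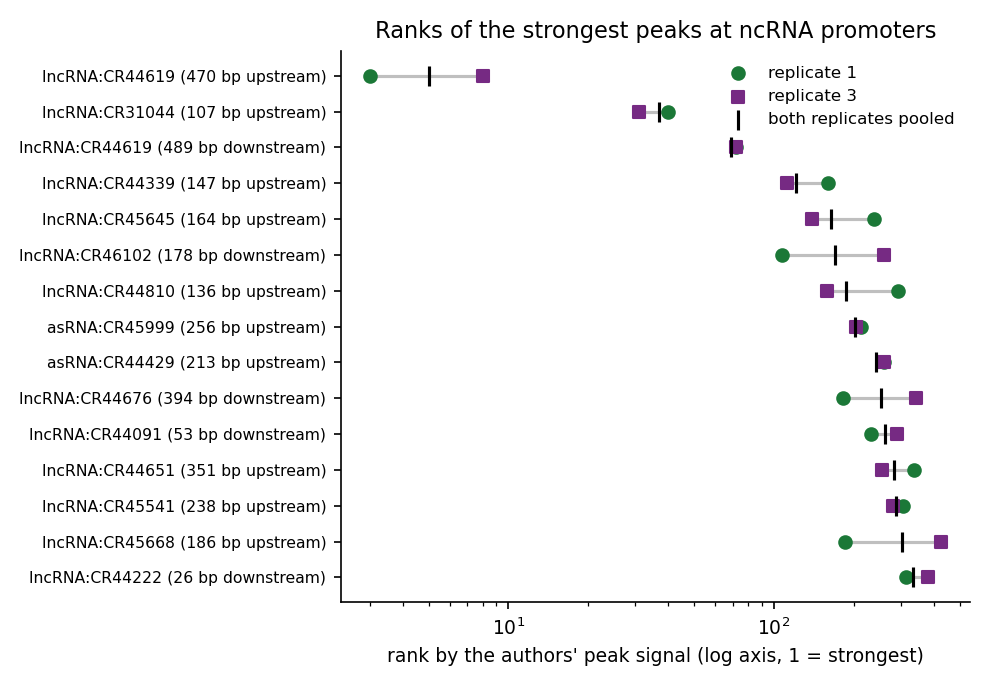
Ranks by signal, on a log axis where 1 is the strongest, of the 15 strongest ncRNA promoter peaks in the list of replicate 1 (circles), of replicate 3 (squares) and of both pooled (bars). The upstream CR44619 peak ranks 3 and 8 in the replicates, and the lowest rank shown is 426, at CR45668 in replicate 3.

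On chromosome 4 the strongest of 3 peaks was at CR45125, in an intron of dati, with a signal of 41.9 at pooled rank 16136. It overlapped no IDR peak and no peak of replicate 3.

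A peak of replicate 1 was overlapped by 559 of the 729 peaks (76.7%), where 73.9% of all pooled peaks overlapped one. A peak of replicate 3 was overlapped by 573 (78.6%), where 77.8% of all pooled peaks did. Both replicates held 441 of the 729 (60.5%, against 56.7% of all pooled peaks), replicate 1 alone 118, replicate 3 alone 132 and neither 38. The replicate lists differ in strength: at a q-value of 0.05 or less, replicate 1 had 5282 peaks and replicate 3 had 13828. Outside the 729, 4726 of the 4888 pooled peaks that overlap the IDR list were found in both replicates. A high share is thus common to IDR-overlapping peaks and is no trait of ncRNA promoters. Of the 134 IDR-overlapping ncRNA promoter peaks, 133 were in both replicates. The exception was 28 bp upstream of CR43144 on 2L, with a signal of 117 and pooled rank 3744; it ranked 3415 in replicate 1 and overlapped no peak of replicate 3. Over the 133, Spearman's correlation of the replicate ranks was 0.728, as a description across peaks that share their libraries. It was 0.633 over the 4726 other IDR-overlapping pooled peaks found in both replicates. The IDR list is selected for reproducible ranks, so neither value measures how reproducible these peaks are. The median rank of the ncRNA promoter peaks in IDR was 1678 in replicate 1 and 1788 in replicate 3. Their rank was better in replicate 1 for 68 of 133 (51.1%, 42.7 to 59.5%), against 44.0% (41.6 to 46.4%) at protein-coding promoter peaks and 54.2% (52.4 to 55.9%) at distal peaks.

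**Figure D3:**
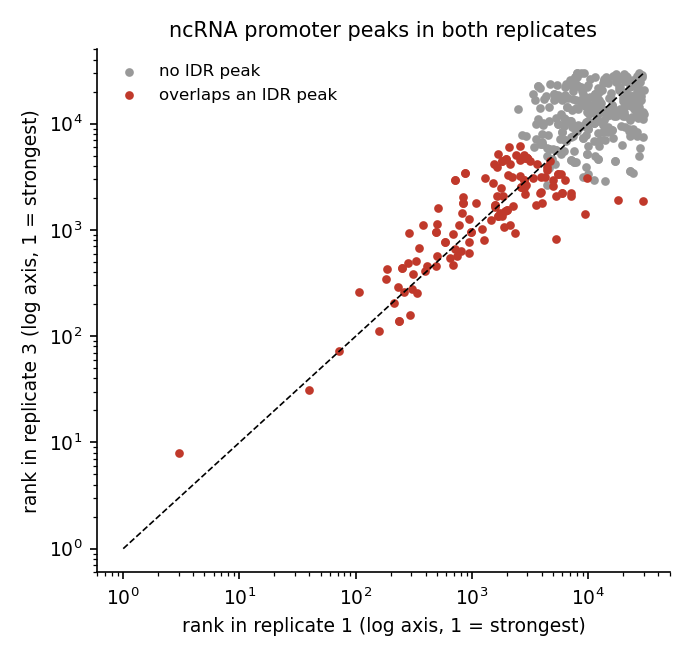
Rank in replicate 1 and in replicate 3 of the 441 ncRNA promoter peaks found in both, on log axes where 1 is the strongest; red points overlap an IDR peak, grey points do not, and the dashed line marks equal ranks. The 133 red points, which the IDR list selects for reproducible ranks, have a Spearman correlation of 0.728.

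By kind of gene, 615 of the 729 peaks were nearest to a lncRNA, 64 to an asRNA, 39 to a microRNA entry and 11 to another ncRNA. The IDR list was overlapped by 116 lncRNA peaks (18.9%), 11 asRNA peaks (17.2%), 6 microRNA-entry peaks (15.4%) and 1 of the others. Of 2331 ncRNA genes with a TSS more than 1000 bp from any protein-coding TSS, 592 (25.4%) had a pooled summit within the window. An IDR summit here is the summit of a pooled peak that overlaps the IDR list. Such a summit was present at 106 of these ncRNA genes (4.55%, 3.77 to 5.47%). It was present at 12.5% of all 13945 protein-coding genes, to which no such distance was applied. The share with an IDR summit was 5.73% for lncRNAs, 2.37% for asRNAs and 2.46% for microRNA entries.

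Most genes had a single peak: 506 had 1, 96 had 2, 9 had 3 and 1 had 4. The gene with 4 was CR43650 on 2R, host of mir-8, a member of the conserved miR-200 family; its strongest peak had a signal of 192, and 1 of the 4 overlapped an IDR peak. CR45251 on 3L had 3 peaks with signals of 448, 214 and 180, and all 3 overlapped an IDR peak; the first and the third shared their replicate peaks. CR43626 on 3L, host of mir-282, had signals of 386, 310 and 29.5. All 3 overlapped an IDR peak, the weakest at pooled rank 26051, and it shared its replicate peaks with the peak of signal 310. CR44276 on 2R had signals of 209, 91.4 and 53.4, with 2 peaks in IDR. CR46006 on 3L, host of mir-276a, had signals of 123, 70.1 and 45.1, with 1 in IDR. These 4 were the strongest of the 9 genes with 3 peaks; the other 5, whose highest signals ran from 40.0 at CR45280 to 106 at CR43334, had no peak in IDR.

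Of 25 well-studied ncRNA genes found in the annotation, 6 had a peak (24%), against 18.8% of all 3261 ncRNA genes, and 3 had a peak in IDR (12%), against 3.37% of all. The 3261 include microRNA entries, and the 25 hold none. Over the 1944 lncRNA genes the shares were 26.2% with a peak and 4.78% with a peak in IDR. With only 25 studied genes, their shares are given as a description only. Of the 25, 4 had a protein-coding TSS within 500 bp of a TSS of their own, where a summit could be barred from the set. Hsromega, a heat-inducible nuclear RNA that organises omega speckles, had its stronger peak 244 bp upstream of a TSS at 21296172 to 21296581 on 3R. The signal was 215 and the pooled rank 1480, with rank 712 in replicate 1 and 2980 in replicate 3. A weaker Hsromega peak, 31 bp upstream, had a signal of 47.1 and overlapped the same replicate peaks. Both Hsromega summits lay inside the annotated gene, which starts at 21296127, so the TSS they lie upstream of is an internal one. Uhg4, a host gene of small nucleolar RNAs on 2R, had a peak 54 bp upstream at pooled rank 659, with rank 710 in replicate 1 and 663 in replicate 3. The flam locus, a source of Piwi-interacting RNAs that restrain transposons, had a peak 270 bp upstream at 21631416 to 21631825 on X. It had pooled rank 3511, rank 6346 in replicate 1 and 2955 in replicate 3. The peaks of the other 3 genes overlapped no IDR peak. The gene roX1, whose RNA is part of the dosage compensation complex, had a peak 41 bp downstream of its TSS with a signal of 48.1, ranked 9231 in replicate 1 and 29762 in replicate 3. RNaseMRP:RNA had a signal of 105 and RNaseP:RNA one of 38.5, neither overlapped an IDR peak, and RNaseP:RNA overlapped no peak of replicate 1.

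The summits were spread over the window. Of the 729, 379 lay upstream of the TSS (52.0%, 48.4 to 55.6%), with a median position of -10 bp relative to the TSS, negative being upstream. At protein-coding promoter peaks 62.0% (60.8 to 63.2%) lay upstream, with a median of -54 bp. Within 100 bp of the TSS lay 24.6% of ncRNA promoter summits, against 36.7% of protein-coding ones. Between 400 and 500 bp downstream lay 86 ncRNA promoter summits (11.8%), against 4.82% of protein-coding ones. The step from 0 to 100 bp downstream held nearly as many, 83 (11.4%), against 15.1% of protein-coding ones. Upstream, the steps within 100 bp and from 100 to 200 bp held 96 and 97 ncRNA promoter summits. Among peaks that overlap the IDR list, 59.7% (51.2 to 67.6%) of ncRNA promoter summits lay upstream, with a median of -91 bp. The matching values at protein-coding promoters were 77.3% (75.3 to 79.2%) and -118.5 bp. By distance from the TSS in steps of 100 bp, the IDR share of ncRNA promoter peaks was 16.2, 18.4, 18.0, 19.2 and 20.9%. At protein-coding promoters it was 23.8, 33.4, 28.8, 28.0 and 24.0%. No test of these differences was made.

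**Figure D4:**
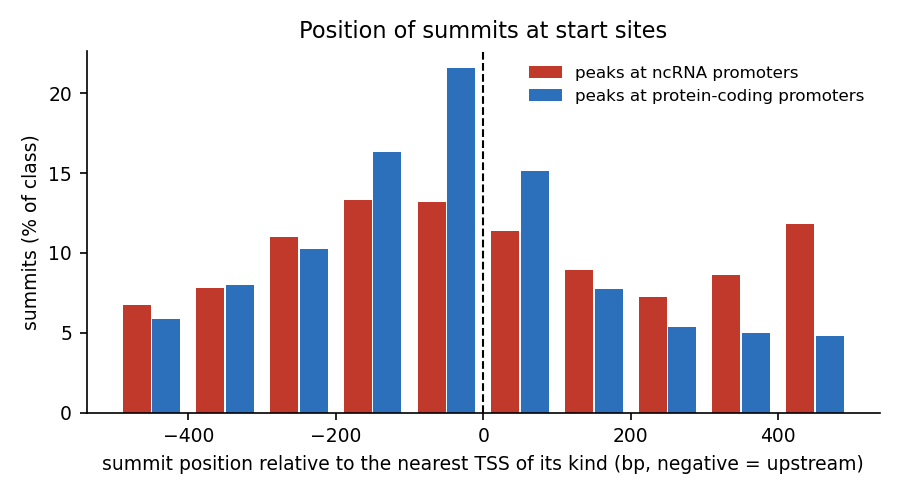
Position of summits relative to the nearest TSS of their kind in bp, upstream negative, as the percent of each class in steps of 100 bp, at ncRNA and protein-coding promoter peaks. The ncRNA promoter summits have a median of -10 bp and 24.6% within 100 bp, against -54 bp and 36.7% at protein-coding promoters.

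Just inside the 500 bp limit were CR45971 at 500 bp with a signal of 61.2, CR44276 at 498 bp with 209, and CR30121 at 498 bp with 34.9. Just outside were CR44606 at 501 bp with 55.8, CR44363 at 501 bp with 255, and CR44206 at 502 bp with 31.5. On the protein-coding side, the nearest inside were CR43644, 502 bp from E(spl)m3-HLH with a signal of 307, CR45481 at 507 bp with 31.9, and CR44124 at 509 bp with 121. Just outside were CR44322 at 498 bp with 63.4, CR43899 at 496 bp with 127, and CR45018 at 496 bp with 69.6.

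Relative to protein-coding genes, 249 of the 729 summits lay inside one (34.2%, 30.8 to 37.7%), against 69.9% of distal peaks. Distal peaks lie away from ncRNA TSSs by definition, so this contrast depends on where ncRNA genes are annotated. The share of all ncRNA TSSs inside protein-coding genes is not given here. The median distance of ncRNA promoter peaks to a protein-coding TSS was 3376 bp, against 4786 bp for distal peaks. Between 501 and 5000 bp from a protein-coding TSS, 21.2% (17.7 to 25.2%) of 462 ncRNA promoter peaks overlapped the IDR list, against 16.4% (15.8 to 17.1%) of distal peaks. Beyond 5000 bp the shares were 13.5% (9.90 to 18.1%) of 267 ncRNA promoter peaks and 10.9% (10.4 to 11.5%) of distal peaks. Outside protein-coding genes they were 19.4% (16.1 to 23.1%) and 12.4% (11.6 to 13.2%), and in introns 17.8% (13.3 to 23.3%) and 15.1% (14.5 to 15.7%). Of 241 summits inside exactly 1 protein-coding gene, 166 (68.9%, 62.8 to 74.4%) had an ncRNA on the opposite strand. That held for 120 of 164 at lncRNAs, 41 of 45 at asRNAs and 2 of 22 at microRNA entries. These shares describe annotated strands, and for asRNAs the strand follows largely from their definition. The same share over ncRNA genes without a peak is not given here, so it is no trait of the peaks.

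Across the chromosome arms, 2L had 176 of the peaks, 2R 132, 3L 179, 3R 150, chromosome 4 had 3 and X had 89. As a share of all pooled peaks on the arm this was lowest on X, at 1.45% (1.18 to 1.78%), and on the large autosomal arms it was 3.20% (2L), 2.66% (2R), 2.74% (3L) and 2.22% (3R). Per 100 ncRNA genes of the arm, X had 18.4 peaks, against 21.9 for 2L, 23.7 for 2R, 27.3 for 3L and 20.5 for 3R. Chromosome 4, with 30 ncRNA genes and 3 peaks, had 10 per 100.

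Letters of 13 motifs were searched on both strands within 100 bp of each summit; a match is a description of the sequence and not a binding site. GAGAGAG, bound by GAGA factor, was in 5.90% (4.41 to 7.85%) of ncRNA promoter windows, against 7.95% of protein-coding promoter windows, 3.86% of distal windows and 4.77% of all pooled windows. It was in 2.73% of 1757 windows of the same length at ncRNA TSSs without a pooled summit. Those windows lie at TSSs and the peak windows at summits, so the 2 sets differ in position as well. They may also differ in kind of gene, which was not matched. Among ncRNA genes over 1000 bp from any protein-coding TSS, 15.8% of 568 microRNA entries had a pooled summit. For lncRNAs it was 30.6% of 1518. GGTCACACT, bound by M1BP, was in 0.274% of ncRNA promoter windows, against 2.35% at protein-coding promoters, 0.144% of distal windows, 0.61% of all and 0.171% at ncRNA TSSs without a summit. TATCGATA, bound by DREF, was in 0 of 729; a limit of 3 counts allows up to 0.412%, and the Wilson interval reaches 0.524%. It was in 3.69% of windows at protein-coding promoters, 0.313% of distal windows, 1.01% of all and 0.512% at ncRNA TSSs without a summit. CGATA, bound by BEAF and contained in the DREF motif, was in 18.2%, against 30.05% at protein-coding promoters, 18.7% of distal windows, 21.1% of all and 20.03% at ncRNA TSSs without a summit.

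The E-box CAGCTG was in 7.82% of ncRNA promoter windows, against 12.0% at protein-coding promoters and 8.96% of all. TGATAC, for the Sine oculis family, was in 4.66%, against 4.77% at protein-coding promoters and 4.74% of all. GCCAT, for Pleiohomeotic, was in 33.2%, against 27.3% at protein-coding promoters and 33.3% of all. It was in 22.4% (16.2 to 30.2%) of ncRNA promoter windows whose peak overlapped an IDR peak, against 27.0% of all pooled windows whose peak did. In the same 2 sets CGATA was in 15.7% (10.5 to 22.8%) and 22.0%, and GAGAGAG in 5.97% (3.06 to 11.3%) and 5.77%. Each share of all pooled windows lay inside the interval, and the other motifs are not given for these sets. TATAAA was in 24.3% of the windows of all 729 peaks, against 25.5% at protein-coding promoters and 24.0% of all. The Initiator letters TCAGTT were in 13.4%, against 14.7% and 13.4%. AGGNGGC, for CTCF, was in 8.37%, against 6.79% and 7.43%. The Su(Hw) letters, TGCATA and TTT separated by a single base of any kind, were in 1.23%, against 0.668% and 1.14%. CAGGTA, for Zelda, and AGGTCA, a core site of nuclear receptors, were each in 3.57% of ncRNA promoter windows. Of all pooled windows, 3.86% held the Zelda letters and 3.84% the receptor letters. At ncRNA TSSs without a pooled summit, shares above those of ncRNA promoter windows were found for the Initiator (16.8%), Zelda (5.01%), nuclear receptor (5.12%), Sine oculis (5.98%), Pleiohomeotic (34.9%) and E-box letters (7.97%). Lower shares were found there for the TATA box (22.5%), CTCF (6.26%) and Su(Hw) letters (0.683%). Among these letters, only the Initiator and CTCF shares fell outside the intervals of ncRNA promoter windows. Those intervals were 11.2 to 16.1% and 6.57 to 10.6%.

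**Figure D5:**
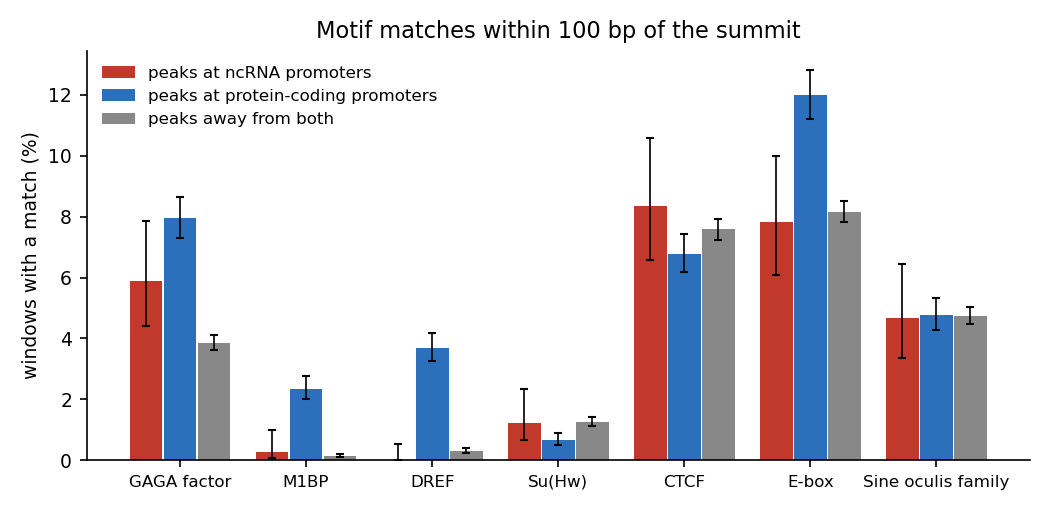
Share of windows of 100 bp to either side of the summit that hold each of 7 of the motifs, in percent, by class of peak, with 95% Wilson intervals. GAGAGAG is in 5.90% of ncRNA promoter windows and 7.95% of protein-coding ones, and the M1BP and DREF motifs are in 0.274% and 0% against 2.35% and 3.69%.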

How the data were processed

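Peak lists of Dachshund-eGFP ChIP-seq in whole prepupae were used on dm6: a relaxed list for each of 2 biological replicates, a pooled relaxed list and an optimal IDR list. Per the deposited file descriptions, the relaxed lists were derived from the ChIP alignments and a further file. The signal of each peak and its −log10 q-value are the authors' deposited values, as is the summit offset. For the aligner, the peak caller and the threshold of the IDR list, no source used here gives a name or value. The dm3 lists were not used.

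TSSs came from Ensembl release 115 and sequences from RefSeq Release 6. Distances, overlaps of at least 1 bp, motif matches and 95% Wilson intervals were computed in Python 3.11.15 with numpy 2.4.6, pandas 2.3.3 and scipy 1.17.1; figures used matplotlib 3.10.9. The scripts were tested on simulated data. No p-value was computed, since there is 1 group. Named genes are the 15 strongest peaks, the strongest on each arm, 5 genes with most peaks (ties broken by the highest signal), well-studied genes with a peak, IDR peaks missing from a replicate, and those nearest the limits. The members and lists were chosen with earlier results of these data known.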

Additional observations from a re-analysis of the deposited data

How the results depend on the processing

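Values were called moved when they shifted by more than 1 SD between the replicate lists, or for counts by over 1.5 times; a share of motif windows, which has no replicate value, was judged by its interval. With only 2 lists these SDs are small, and 69 of 119 values moved, 1 reversed and 49 did not. The cause was not tested. The number of peaks (729) was 439 with a window of 250 bp, 1148 with 1000 bp and 234 at q of 0.05 or less; the number of genes (612) was 406 with 250 bp and 212 at that q. The IDR share (18.4%) was 18.2% with 250 bp, 17.2% with 1000 bp, 18.7% with gene 5′ ends, 17.2% with every non-coding biotype, 52.1% at q of 0.05 or less, 17.1% with at least 0.5 of the peak covered, 17.0% with the summit inside, 10.6% with IDR peaks above their median signal and 17.8% with overlapping peaks merged. Alternatives chosen after seeing the data gave 18.6% without microRNA entries, 15.2% for the same start and end, and 18.8% for the lncRNA prefix. From single replicate lists it was 19.5 to 19.6%.

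The difference of that share from all other peaks (1.68 points) was 0.437 with 1000 bp, 0.45 with every biotype, 3.28 at q of 0.05 or less and 2.87 to 3.80 in single replicate lists. The difference from protein-coding promoter peaks (-9.09) was -2.15 at that q, -4.60 with the stronger IDR peaks, and -9.44 to -4.16 in single lists. The log2 signal difference (0.04) was 0.0161 with 250 bp, -0.0199 with 1000 bp, 0.0567 with gene 5′ ends, 0.0189 with every biotype, 0.0703 at that q, 0.0447 without microRNA entries, 0.0300 for the lncRNA prefix, and 0.046 to 0.047 in single lists. The share of eligible genes with an IDR peak (4.55%) was 2.61% with 250 bp, 6.80% with 1000 bp, 3.89% with every biotype, 4.42% at that q, 4.50% with that cover and with the summit inside, 2.53% with the stronger IDR peaks, 5.22% without microRNA entries, 4.38% for the same start and end, 5.73% for the lncRNA prefix, and 4.59 to 4.63% in single lists. The share inside a protein-coding gene (34.2%) was 32.7% with 1000 bp, 38.7% with gene 5′ ends, 35.8% with every biotype, 31.2% at that q, 32.8% without microRNA entries, 27.2% for the lncRNA prefix, and 35.1 to 36.7% in single lists. The share upstream (52.0%) was 56.9% with 250 bp, 48.9% with 1000 bp, 57.3% at that q, 50.2% for the lncRNA prefix, and 49.1 to 51.6% in single lists. With 50 bp in place of 100 bp, 10 motif shares fell below their interval, as a shorter window holds fewer letters.

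No paired analysis was possible because there is 1 group. The read depth is unknown, no control was analysed, and the relaxed list holds weak peaks by construction.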

Other observations

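Hosts of microRNAs were looked at after their values were seen. Of 34 lncRNA genes with a microRNA hairpin on their own strand, 17 had an ncRNA promoter peak (95% Wilson interval 34.1 to 65.9%), against 509 of all 1944 lncRNA genes, hosts included (26.2%). An IDR-overlapping peak was near 6 of the hosts, against 93 of all lncRNA genes (4.78%). The 6 were Hsromega, CR31044, CR43626, CR46006, CR43650 and CR43857, host of mir-275. The hosts had a mean of 2.35 annotated transcripts and a median length of 6116.5 bp, against 1.19 transcripts and 662.5 bp over all lncRNA genes; the part of this in the counts was not tested. CR43334, host of the growth-promoting bantam microRNA, had 3 peaks, the strongest with a signal of 106, and none overlapped an IDR peak.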
